A study of Mus musculus with 6 samples.

Results

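Messenger RNA levels of 10 genes of inflammatory signalling were followed in mouse bone with and without the microRNA cluster miR-29cb2. The 10 genes are the cytokines Il1b, Il1a, Il6 and Tnf, the IL-1 receptor antagonist Il1rn, the chemokines Cxcl2, Ccl3 and Ccl4, and the NF-kB feedback inhibitors Nfkbia and Tnfaip3. They were chosen by name, and all 10 were found among the 54532 genes of the table. Bone was taken from female C57BL/6J mice at 16 weeks of age, and both genotypes share this background, sex and age. There were 3 wild-type libraries (genotype WT) and 3 knockout libraries (genotype MIR29cb2-/-). The sources used here do not give the deleted interval, the bone taken, whether marrow was removed, or whether each library came from its own animal. The p-values therefore measure the spread between libraries, which may be technical in part.

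NF-kB is a transcription factor held in the cytoplasm by IkB proteins until signals from Toll-like, IL-1 or TNF receptors cause the IkB protein to be degraded. In the nucleus it switches on cytokine and chemokine genes together with genes that shut the pathway down again, among them Nfkbia, which encodes IkB-alpha, and Tnfaip3, which encodes the ubiquitin-editing enzyme A20. In bone, IL-1 and TNF are known for promoting the formation and activity of osteoclasts, and marrow monocytes, macrophages and neutrophils are among the cells that make them.

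The mature microRNAs of the deleted cluster are shown first because they define the sites searched for in the 10 genes. Both miR-29b-3p and miR-29c-3p share their seed, bases 2 to 8 from the 5′ end, in capitals, with miR-29a-3p from another chromosome (RefSeq, GRCm38.p6).
mmu-miR-29b-3p (chr1:195037091-195037113, plus strand): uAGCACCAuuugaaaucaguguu
mmu-miR-29c-3p (chr1:195037600-195037621, plus strand): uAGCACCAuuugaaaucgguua
mmu-miR-29a-3p (chr6:31062673-31062694, minus strand): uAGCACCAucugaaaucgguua
A transcript pairs with this seed through the 7 bases TGGTGCT. On the transcript strand, 13.8% of 20994 genes with an annotated 3′ UTR held that match in at least 1 coding transcript. Among the 10 genes it was found in 1, Il6, in a transcript with a UTR of 1668 bases (capitals mark the match).
Il6 (chr5:30019074-30019103, plus strand, 3′ UTR): aataagatggTGGTGCTgacctctggacgc

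Levels are in FPKM, which by definition counts fragments relative to exon length and library size, so that genes can be compared. Recovered reads ranged from 16727111 to 20118034 per library. The library size implied by the FPKM values was below the recovered reads in wild-type replicate 2 (19514680) and knockout replicate 1 (16578350). It was above them in the other libraries, and the scaling used is not given. The libraries of wild-type replicate 2 and of knockout replicate 1 differed from the other 4, with FPKM totals of 489576 and 487102 and relatively more signal from short genes (Spearman's rho of deviation with exon length across genes of -0.42 and -0.45). Changes were tested with limma on log2(FPKM + 1) over the 13619 genes with a mean of at least 1 FPKM, and "changed" means a Benjamini-Hochberg adjusted p under 0.05. Of the 10 genes 8 reached that level, and Il6 and Cxcl2 did not. Osteoblast markers such as Alpl and Sp7 were present in all libraries, as the label of bone requires, and so were markers of marrow blood cells and muscle. Of fat and cartilage only some markers were clearly present in every library. In knockout replicate 3 Cfd stood at 9.90 and Col2a1 at 4.49 FPKM, but Plin1 at 0.137 and Matn3 at 0 FPKM.

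One cytokine fell, and the others did not follow it. Il1b was 2.75-fold lower in knockout bone, while Tnf and Il1a lay higher in every knockout library than in any wild-type library without passing the test. The feedback genes Nfkbia and Tnfaip3, the antagonist Il1rn and the chemokines Ccl3 and Ccl4 did not change by the test. In limma 1 of 8 tested genes passed, lower in the knockout, against 5.16% of all genes tested (3.82% lower and 1.34% higher). None was higher by limma, or by limma's voom on recovered reads, and 3 of 8 (Il1b, Tnf and Il1a) had an unadjusted p under 0.05, against 20.6% of all genes tested. The groups did not overlap in 4 of the 8, of which 2 were lower and 2 higher, against 28.4% of genes tested (13.7% lower and 14.7% higher). With Cxcl2 they did not overlap in 5 of the 10, against 20.2% of genes above 0. The median log2 change of the 8 was -0.094, against 0.060 over all genes tested.

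**Figure D1:**
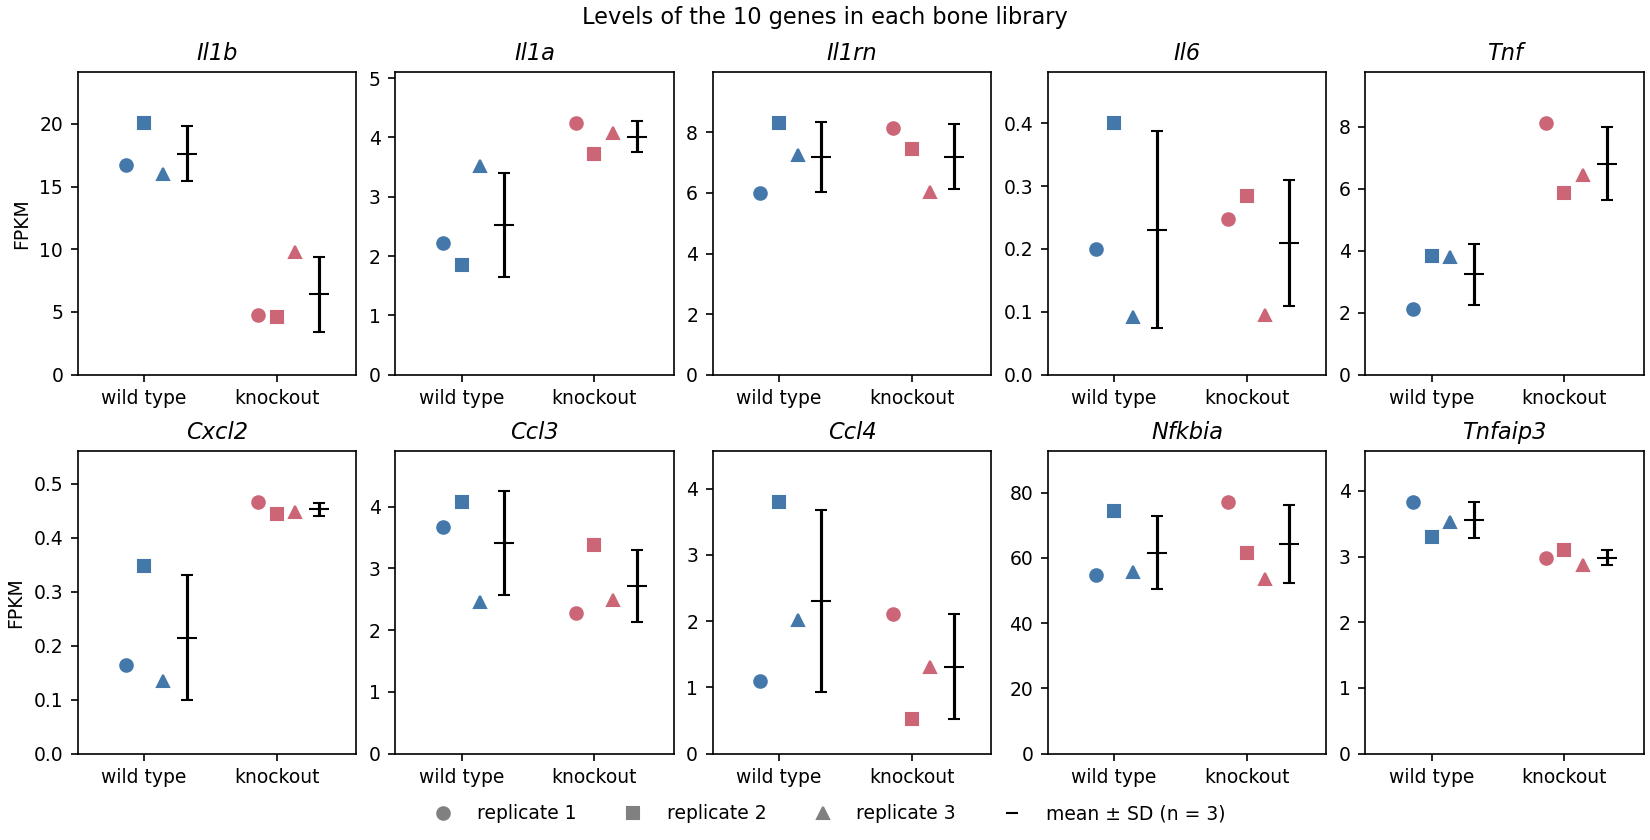
FPKM of each of the 10 genes in the 3 wild-type (blue) and 3 knockout (red) libraries, with the mean and SD in black beside each group; each panel has its own linear axis from 0, and symbols mark the replicate number. The knockout libraries lie below all wild-type libraries for Il1b and Tnfaip3, above them for Il1a, Tnf and Cxcl2, and among them for Il1rn, Il6, Ccl3, Ccl4 and Nfkbia.

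The IL-1 family members, which share 1 receptor, were examined first. Il1b encodes interleukin-1 beta, which is made as an inactive precursor and released after cleavage by caspase-1. The gene (ENSMUSG00000027398) lies on chromosome 2 from 129364570 to 129371139 on the minus strand (mm10). Its level was 16.8, 20.1 and 16.0 FPKM in wild-type replicates 1 to 3 and 4.78, 4.61 and 9.82 FPKM in knockout replicates 1 to 3. All knockout libraries lay below all wild-type libraries, and knockout replicate 3 stood between the other knockout libraries and the wild type. That library had 324 reads (95% Poisson interval 290 to 361, counting error only), against 151 and 153 in the other knockout libraries, so the spread within the knockout exceeded counting error. The means were 17.6 ± 2.18 and 6.40 ± 2.96 FPKM (SD, n = 3), with a log2 change of -1.39 (SE 0.26, 95% interval -2.01 to -0.78, limma adjusted p = 0.0343). In bulk RNA, fewer cells of the type that makes Il1b and less RNA per cell cannot be told apart. The call was kept without knockout replicate 3 (log2 change -1.70, limma adjusted p = 0.00870) and lost when any other single library was left out (log2 change -1.46 to -1.23, limma adjusted p = 0.0742 to 0.126), and without both libraries that stood apart it was also lost (log2 change -1.16, limma adjusted p = 0.119).

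Il1a encodes interleukin-1 alpha, which signals through the same receptor and is active also as the uncleaved precursor. It lies 54.6 kb from Il1b, on the same strand of chromosome 2 (129299610 to 129309972). Its level was 2.21, 1.84 and 3.51 FPKM in the wild-type and 4.25, 3.72 and 4.07 FPKM in the knockout libraries. The highest wild-type library, replicate 3, came within reach of the lowest knockout library, and the groups did not overlap. The log2 change was 0.54 (SE 0.18, 95% interval 0.10 to 0.97), and it did not pass (limma adjusted p = 0.155). The neighbours thus had changes of opposite sign. Within each library, the level of Il1b was 7.57, 10.9 and 4.56 times that of Il1a in wild-type bone. In knockout bone it was 1.12, 1.24 and 2.41 times. These ratios had to separate, because each gene's groups did not overlap and the changes had opposite sign. Noncoding genes overlap both on the opposite strand, Il1bos (mean 0.175 FPKM) and Gm14023 (0.595 FPKM), and because the use of strand is not given their reads cannot be told apart from those of Il1b and Il1a.

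Il1rn encodes the receptor antagonist that occupies the IL-1 receptor without signalling. It lies apart from the other members of the family on chromosome 2 (24336853 to 24351494, plus strand). It stood at 6.00, 8.32 and 7.27 FPKM in wild-type and at 8.14, 7.45 and 6.02 FPKM in knockout bone. The ranges coincided almost fully, and wild-type replicate 2 and knockout replicate 1, the libraries that stood apart, were the highest of their groups. The log2 change was 0.0026 (95% interval -0.36 to 0.37, limma adjusted p = 0.996). Relative to the antagonist, Il1b stood at 2.79, 2.41 and 2.20 in the wild-type libraries and at 0.587, 0.618 and 1.63 in the knockout libraries. These ratios did not overlap, which follows from the levels of Il1b and Il1rn given above and is not a further result.

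Tnf, the tumour necrosis factor gene, had a change of opposite sign to that of Il1b, which did not pass the test. The gene is found on chromosome 17 (35199381 to 35202007, minus strand). Its mRNA is known for AU-rich elements in the 3′ UTR, which are bound by the decay factor tristetraprolin. The 9-base element TTATTTATT was searched on the transcript strand, overlapping matches counted separately, and was present in 8.14% of genes with an annotated 3′ UTR. It was found in 4 of the 10 genes, Tnf, Cxcl2, Nfkbia and Tnfaip3, with 5 overlapping copies in Tnf. No copy was found in Il1b. The shorter element ATTTA was found in 9 of the 10 genes, against 66.3% of genes with an annotated 3′ UTR. Tnf held 8 copies of it and Il1b held 4. Any part of these elements in the changes was not tested. The window below shows the first copy of the 9-base element in Tnf, with the element in capitals.
Tnf (chr17:35199688-35199717, minus strand): tttgcacttaTTATTTATTatttatttatt

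Tnf stood at 2.10, 3.81 and 3.79 FPKM in wild-type bone and at 8.13, 5.85 and 6.45 FPKM in knockout bone. Every knockout library was higher than every wild-type library, with wild-type replicate 1 the lowest and knockout replicate 1 the highest. The means were 3.23 ± 0.980 and 6.81 ± 1.18 FPKM (SD, n = 3) on 305 and 571 reads, which is a 2.11-fold difference. The log2 change was 0.90 (SE 0.21, 95% interval 0.41 to 1.39), and Tnf did not pass (limma adjusted p = 0.0561). Tnf passed when each library's trend with exon length was removed (log2 change 0.91, limma adjusted p = 0.0199). That trend was fitted to deviations from the library's own genotype mean, so removing it acts on the spread within groups. Tnf also passed with array weights (0.66, limma adjusted p = 0.0149). It did not pass in the other 16 of 18 alternatives, in which its log2 change was positive throughout.

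**Figure D2:**
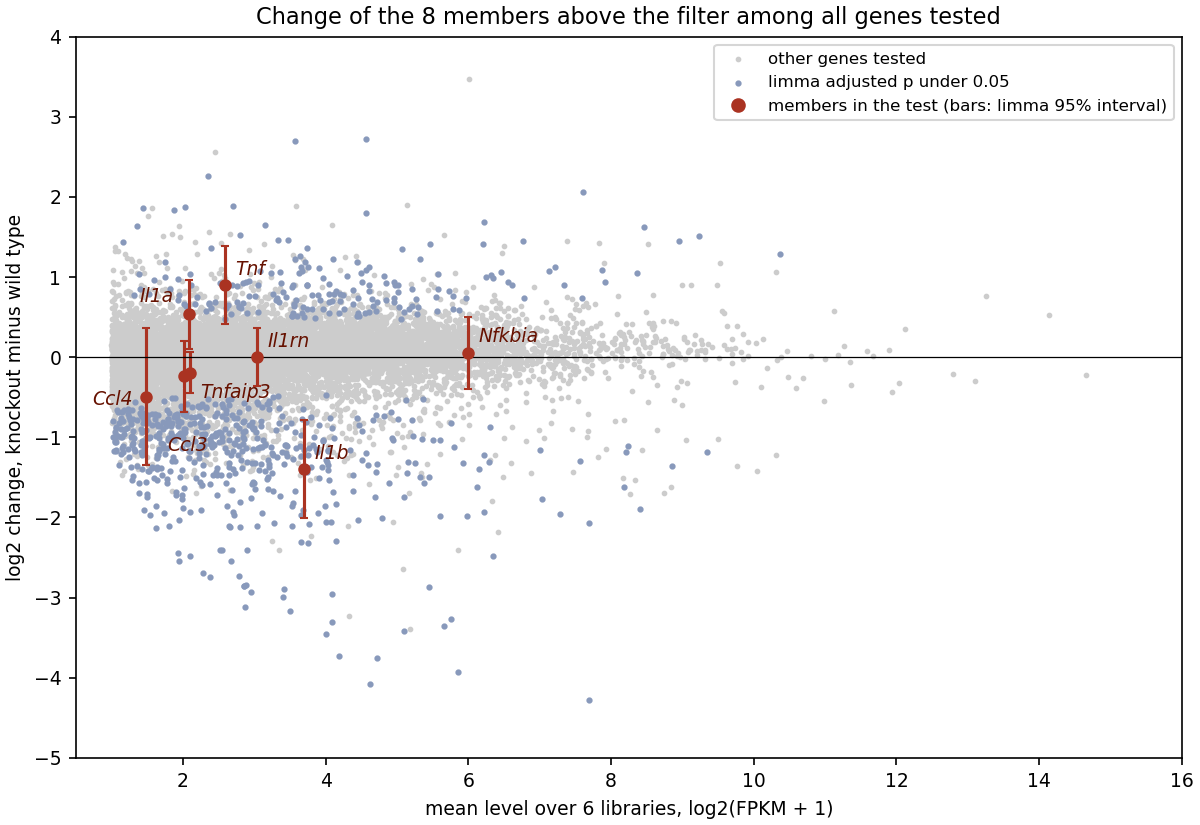
Log2 change on log2(FPKM + 1), knockout minus wild type, against the mean level over 6 libraries for the 13619 genes tested; blue points passed the limma test, and red points with 95% intervals are the 8 members tested. Il1b at -1.39 lies among the genes that passed, Tnf at 0.90 lies at the upper edge of the genes of its level, and the intervals of Il1rn, Ccl3, Ccl4, Nfkbia and Tnfaip3 include 0.

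Il6, which encodes the cytokine that signals through gp130, was close to the limit of detection. It lies on chromosome 5 (30013114 to 30019981) and had 10, 19 and 4 reads in wild-type and 10, 12 and 4 reads in knockout libraries, or 0.20, 0.401, 0.0913, 0.248, 0.284 and 0.0952 FPKM. Wild-type and knockout values overlapped fully, and the two-sided exact permutation p of the means was 1 (n = 3). The 95% Poisson interval of 4 reads is 1.09 to 10.2 reads and that of 19 is 11.4 to 29.7, so a modest difference in Il6 was not detectable at this depth. Its transcript with the miR-29 match could not be separated from the shorter ones in a table of genes.

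Of the chemokines, Cxcl2 encodes a ligand of CXCR2 that attracts neutrophils, and Ccl3 and Ccl4 encode macrophage inflammatory proteins, which attract monocytes and other leukocytes. Cxcl2 (chromosome 5, 90903871 to 90905938) stood at 0.164, 0.347 and 0.134 FPKM in wild-type and at 0.467, 0.444 and 0.447 FPKM in knockout libraries. These values rest on 7, 14 and 5 reads against 16 in each knockout library. The lowest knockout library exceeded the highest wild-type library, as it did for 9% of the 29615 genes above 0. By the exact permutation test (two-sided, n = 3) p was 0.1, and no smaller p is possible with 3 against 3 libraries. The 95% Poisson interval of 16 reads, 9.15 to 25.98, includes the 14 reads of wild-type replicate 2.

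Ccl3 and Ccl4 lie 13.2 kb apart on chromosome 11, at 83647844 to 83649355 on the minus strand and at 83662584 to 83664683 on the plus strand. Ccl3 stood at 3.68, 4.08 and 2.46 FPKM in wild-type and at 2.28, 3.37 and 2.49 FPKM in knockout bone. The groups overlapped (log2 change -0.24, 95% interval -0.68 to 0.21, limma adjusted p = 0.545). Ccl4 stood at 1.10, 3.80 and 2.01 FPKM in wild-type and at 2.10, 0.522 and 1.31 FPKM in knockout bone. It varied most among the tested members, with wild-type replicate 2 at 49 reads and knockout replicate 2 at 6 (log2 change -0.49, 95% interval -1.35 to 0.36, limma adjusted p = 0.514). Single libraries moved this value, to -0.18 without wild-type replicate 2, -0.22 without knockout replicate 2 and -0.78 without wild-type replicate 1, and with array weights Ccl4 passed (-0.80, limma adjusted p = 0.0424). The ratio of Ccl3 to Ccl4 ranged from 1.07 to 3.33 in wild-type and from 1.09 to 6.46 in knockout libraries.

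The feedback inhibitors are direct NF-kB targets, so their promoters are shown as the clearest examples of its binding motif. The kappaB consensus motif was searched on both strands in RefSeq windows from 250 bases before to 50 bases after each gene start (GRCm38.p6), and 4.51% of 32851 windows held it. Of the 10 genes 9 had a window, and 4 of them, Nfkbia, Tnfaip3, Cxcl2 and Il6, had a match. Counted by window, as the 4.51% is, 4 of their 12 windows held a match. In each window below the match is in capitals, read along the gene's strand. The distance given is from the RefSeq gene start to the first base of the match. For Tnfaip3 and Cxcl2 that start lies inside the gene coordinates printed here, which came from GENCODE.
Nfkbia, 29 bases before the start (chr12:55492657-55492686, minus strand): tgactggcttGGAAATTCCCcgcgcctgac
Tnfaip3, 12 bases before the start (chr10:19015403-19015432, minus strand): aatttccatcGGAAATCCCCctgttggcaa
Cxcl2, 97 bases before the start (chr5:90903792-90903821, plus strand): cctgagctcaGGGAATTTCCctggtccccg
Il6, 44 bases before the start (chr5:30013060-30013089, plus strand): tatcaaatgtGGGATTTTCCcatgagtctc
The matches of Nfkbia and Tnfaip3 lie on the strand opposite to the gene. Tnfaip3 held a second match 125 bases before its RefSeq start, and both of its matches lie inside its GENCODE coordinates. The match of Cxcl2 overlaps a match on the other strand 1 base further on. A match is a description of these letters and not a measured binding site.

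Nfkbia (chromosome 12, 55489410 to 55492647) was the most abundant of the 10 genes, at 54.9, 74.4 and 55.6 FPKM in wild-type and 77.3, 61.6 and 53.7 FPKM in knockout libraries. The groups overlapped fully, and wild-type replicate 2 and knockout replicate 1, the libraries that stood apart, were the highest. The log2 change was 0.055 (95% interval -0.39 to 0.51, limma adjusted p = 0.911), from 5776 and 5285 reads. Tnfaip3 (chromosome 10, 19000910 to 19015657) stood at 3.84, 3.30 and 3.53 FPKM in wild-type and at 2.98, 3.11 and 2.87 FPKM in knockout libraries. All knockout libraries were lower, by a small margin, and the gene did not pass (log2 change -0.19, 95% interval -0.45 to 0.066, limma adjusted p = 0.392). Both intervals exclude a change of 2-fold on this scale. Of the 4 genes with a kappaB match, Nfkbia and Tnfaip3 did not pass, and Cxcl2 and Il6 lay below the filter. Cxcl2 lay higher without overlap, Tnfaip3 lower without overlap, and Nfkbia and Il6 overlapped. Groups did not overlap in 20.2% of genes above 0, so these values do not show whether the 4 moved together.

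The genes were also ordered by their mean level within each genotype. In wild-type bone the order was Nfkbia (61.7 ± 11.1 FPKM), Il1b (17.6 ± 2.18), Il1rn (7.20 ± 1.16), Tnfaip3 (3.55 ± 0.270), Ccl3 (3.41 ± 0.844), Tnf (3.23 ± 0.980), Il1a (2.52 ± 0.875), Ccl4 (2.31 ± 1.37), Il6 (0.231 ± 0.157) and Cxcl2 (0.215 ± 0.115; SD, n = 3). The 5 genes from Tnfaip3 to Ccl4 overlapped each other in range, as did Il6 and Cxcl2. In knockout bone Il1rn (7.20 ± 1.08), Tnf (6.81 ± 1.18) and Il1b (6.40 ± 2.96) overlapped each other, below Nfkbia (64.2 ± 12.002) and with Il1a at 4.01 ± 0.266 FPKM. Tnfaip3 (2.99 ± 0.118), Ccl3 (2.72 ± 0.579), Ccl4 (1.31 ± 0.790), Cxcl2 (0.453 ± 0.0122) and Il6 (0.209 ± 0.10) followed.

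Other genes of the same pathways were taken from 8 lists with 117 genes, of which 103 were tested. Of these 3 rose and 4 fell by limma, or 6.80%, against 5.16% of all genes tested, and their median log2 change was 0.099. The genes that rose were Il1r2, Pycard and Bcl3, and those that fell were the chemokines Cxcl9, Cxcl10 and Ccl8 and the chemokine receptor Cx3cr1.

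In the list of IL-1 receptors, signalling and processing, 2 of 18 tested genes rose and 0 fell (median log2 change 0.19). Il1r2, the decoy receptor that binds IL-1 without signalling, stood at 8.63, 14.4 and 14.5 FPKM in wild-type and at 29.3, 27.8 and 30.04 FPKM in knockout bone (log2 change 1.19, limma adjusted p = 0.0269). The groups did not overlap, and the knockout libraries lay close together. Pycard, the inflammasome adaptor that recruits caspase-1, stood at 5.49, 6.57 and 7.36 FPKM against 13.3, 10.99 and 10.2 FPKM (log2 change 0.74, limma adjusted p = 0.0385). Nlrp3 and Casp1, chosen after their values were seen as the other core parts of the inflammasome, had log2 changes of -0.66 and 0.39 and did not pass (limma adjusted p = 0.0885 and 0.134). The signalling receptor Il1r1, chosen in the same way, had a log2 change of 0.099 (limma adjusted p = 0.760).

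Of the TNF receptors and adaptors, 0 of 17 passed by limma and 0 had an unadjusted p under 0.05 (median 0.089). The gene with the smallest p was Ripk1, the kinase recruited to the TNF receptor (log2 change 0.29, limma adjusted p = 0.258). The receptor genes Tnfrsf1a and Tnfrsf1b, chosen after their values were seen, had log2 changes of 0.049 and -0.20 and did not pass (limma adjusted p = 0.907 and 0.528). Of the IL-6 receptors and signalling genes, 0 of 8 passed by limma and 3 had an unadjusted p under 0.05 (median 0.16). Among them Socs3, the feedback inhibitor of gp130 signalling, stood at 7.47, 9.86 and 7.93 FPKM against 13.4, 19.96 and 11.3 FPKM, without overlap (log2 change 0.72, limma adjusted p = 0.105).

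Chemokines other than the 3 above held 3 of the 4 falls. Of 9 tested, 3 fell and 0 rose (median -0.62), while 5 lay below the filter. Cxcl9, a CXCR3 ligand induced by interferon-gamma, stood at 6.07, 5.28 and 9.13 FPKM against 0.980, 1.68 and 2.13 FPKM (log2 change -1.59, limma adjusted p = 0.0198). Cxcl10, another CXCR3 ligand, stood at 1.85, 2.50 and 2.58 against 0.375, 0.535 and 0.744 FPKM (log2 change -1.09, limma adjusted p = 0.020). Ccl8 stood at 5.61, 14.8 and 9.33 against 1.65, 3.03 and 1.36 FPKM (log2 change -1.81, limma adjusted p = 0.0345). None of these 3 overlapped between groups, as was so for 13.7% of all genes tested in the lower direction. The 3 were named because they passed limma on the same libraries, so this is not a further result. Ccl3 and Ccl4, which were not named by the test, overlapped.

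Of 11 chemokine receptors 1 fell and 0 rose (median 0.20). The fractalkine receptor gene Cx3cr1 stood at 5.57, 6.65 and 6.49 FPKM against 1.57, 3.59 and 2.10 FPKM (log2 change -1.12, limma adjusted p = 0.0359). Of 11 NF-kB subunits and IkB kinases 0 passed by limma and 2 had an unadjusted p under 0.05 (median 0.14). The smallest p belonged to the kinase gene Ikbke (log2 change 0.57, limma adjusted p = 0.0710). Of 18 other NF-kB target and feedback genes 1 rose and 0 fell (median -0.0085). That gene was Bcl3, an IkB family member that acts in the nucleus, at 8.38, 8.84 and 7.59 FPKM in wild-type and 18.7, 15.2 and 15.2 FPKM in knockout bone (log2 change 0.90, limma adjusted p = 0.0167). Of 11 Toll-like receptors and co-receptors 0 passed by limma and 1 had an unadjusted p under 0.05, Tlr1 (median of the list 0.14, log2 change of Tlr1 0.73, limma adjusted p = 0.0683).

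**Figure D3:**
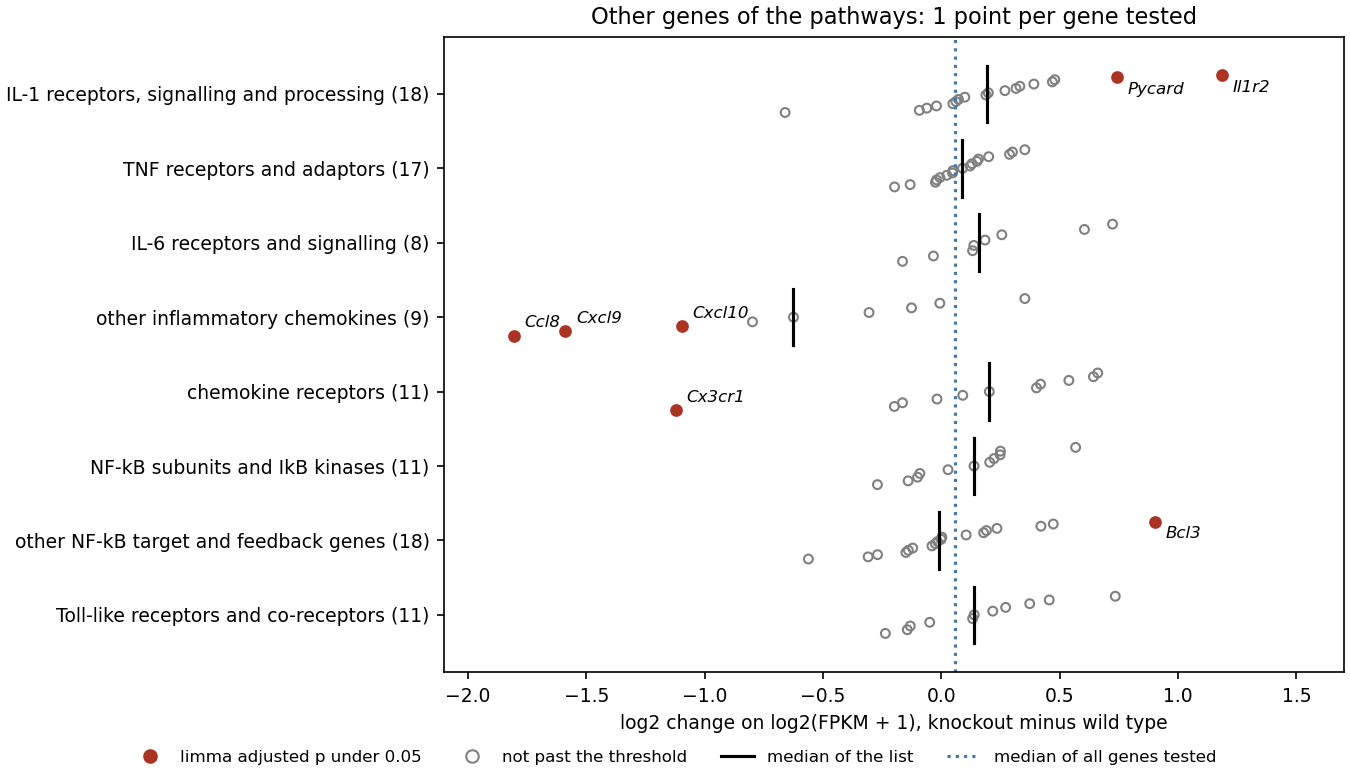
Log2 change, knockout minus wild type, of each tested gene in the 8 pathway lists, with the number tested in brackets; filled points passed the limma test, black bars are list medians and the dotted line is the median of all genes tested. Of the lists, the other inflammatory chemokines have the lowest median (-0.62), and the 7 filled points are Il1r2, Pycard, Bcl3, Cxcl10, Cx3cr1, Cxcl9 and Ccl8.

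Leaving out single libraries ended most of these calls. Bcl3 passed in 4 of 6 such fits (lost without wild-type replicate 1 and without knockout replicate 2), and Il1r2 in 3 (lost without each knockout replicate). Cxcl9 passed in 3 (lost without wild-type replicate 1, knockout replicate 1 and knockout replicate 2), Cxcl10 in 1 (kept without knockout replicate 3), Cx3cr1 in 1 (kept without knockout replicate 2), and Ccl8 and Pycard in 0. Directions were the same in all 6 fits for all 7 genes.

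The genes most alike to Il1b and Tnf were sought among 11432 other protein-coding genes by Pearson's r of log2(FPKM + 1) over the 6 libraries. Since the libraries fall into 2 genotypes, a high r includes the difference between groups, and it is given as a description. The genes were picked by r, so a shared order of libraries within groups follows from the choice and is not a further result. For Il1b they were Lrrc20 (r = 0.997), Tmem233 (0.996) and Tmem143 (0.996). Tmem233 stood at 9.08, 10.01 and 6.85 FPKM in wild-type and at 0.170, 0.278 and 2.87 FPKM in knockout bone, with knockout replicate 3 the highest of its group. For Tnf they were the proton channel gene Hvcn1 (r = 0.998), Ica1 (0.998) and Relt, a member of the TNF receptor family (0.996). Hvcn1 stood at 15.5, 17.7 and 17.8 FPKM against 22.3, 19.9 and 20.6 FPKM, with wild-type replicate 1 the lowest and knockout replicate 1 the highest, as for Tnf.

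Markers of the cells that make these cytokines were set beside them. Of 14 monocyte and macrophage markers Csf1r fell and 0 rose by limma, and the summed level ranged from 755 to 896 FPKM in wild-type and from 756 to 997 FPKM in knockout libraries. These markers did not move as 1 group: 5 had an unadjusted p under 0.05, of which 2 were lower and 3 higher, and the median log2 change was -0.12. Cd68 (log2 change -0.55, limma adjusted p = 0.0923) and Cd163 (0.91, limma adjusted p = 0.0552), chosen after their values were seen, are examples of each direction. Of 12 neutrophil markers 0 passed by limma and 3 had an unadjusted p under 0.05, with Lcn2 at the smallest p (log2 change 0.90, limma adjusted p = 0.101). The sum ranged from 22111 to 41977 FPKM and from 39668 to 51186 FPKM, and the median log2 change was 0.38. S100a8 and S100a9, chosen after their values were seen, made up most of that sum in every library. Of 7 markers of neutrophil precursors 4 rose, among them Ctsg, Ms4a3 and Mpo, and the sum ranged from 1148 to 1601 and from 2715 to 3995 FPKM, without overlap. No marker of these 3 lists was at 0 in all libraries. By limma 1.34% of all genes tested rose. The 4 precursor markers that rose, and the sum of the list, thus moved in the direction of Tnf and opposite to Il1b. Fcnb of the same list, chosen after its values were seen, had a log2 change of 0.026 (limma adjusted p = 0.963). The part of the precursor markers in either result was not tested.

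Among other marrow cells, of 8 B cell markers 2 fell, Vpreb1 and Igll1 (sums 271 to 334 and 190.0 to 350.0 FPKM). By limma 0 of 8 T and NK cell markers passed, with 2 at an unadjusted p under 0.05 (57.3 to 82.8 and 89.3 to 130 FPKM, Nkg7 at the smallest p), and 0 of 7 basophil and mast cell markers, with 3 at an unadjusted p under 0.05 (150 to 182 and 100.02 to 144 FPKM, Mcpt8 at the smallest p). Of 6 megakaryocyte and platelet markers 0 passed by limma and 0 had an unadjusted p under 0.05 (814 to 1423 and 1331 to 1614 FPKM, Itga2b at the smallest p). The sums of basophil and mast cell markers were lower in the knockout without overlap, but Mcpt8 and Prss34 made up most of them in every library. At an unadjusted p under 0.05 these 2 were lower and Ms4a2 was higher (log2 change 0.35, limma adjusted p = 0.102). Prss34 and Ms4a2 were chosen after their values were seen. The sums of T and NK cell markers did not overlap either. Nkg7 made up most of that sum in every library (35.1, 53.8 and 49.3 against 108.9, 64.3 and 85.6 FPKM), and the median log2 change of the list was -0.12.

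Markers of the solid tissues were lower in the knockout. Of 6 tested cartilage markers 6 fell, among them Col2a1, Comp and Matn3 (sums 194 to 288 and 7.16 to 28.8 FPKM), and of 5 fat markers 5 fell, among them Plin1, Cidec and Cfd (487 to 752 and 62.8 to 138 FPKM). Of 8 osteoblast markers Alpl and Sp7 fell (1791 to 3545 and 677 to 1489 FPKM), of 7 skeletal muscle markers Myh2, Mylpf and Ckm fell (3430 to 6155 and 1739 to 2598 FPKM), and of 5 endothelial markers Cdh5 and Kdr fell (47.8 to 51.5 and 31.4 to 35.7 FPKM). Within the knockout, replicate 3 had both the highest Il1b and the highest sum of muscle markers, and the lowest sums of cartilage, fat and osteoblast markers. The part of these tissues in the fall of Il1b, Cxcl9, Cxcl10, Ccl8 and Cx3cr1 was not tested.

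Many of the marker calls were lost when 1 library was left out, while their directions stayed the same in all 6 such fits. Col2a1, Comp, Matn3, Plin1 and Cfd passed in 6 of 6. Cidec and Ctsg passed in 5 (lost without wild-type replicate 1), Ms4a3 in 3 (lost without wild-type replicate 1, knockout replicate 1 and knockout replicate 2), Vpreb1 in 3 (lost without wild-type replicates 1 and 2 and knockout replicate 1) and Igll1 in 2 (kept without wild-type replicate 3 and without knockout replicate 2). Alpl and Sp7 passed in 1 (kept without wild-type replicate 3), Cdh5 and Myh2 in 1 (kept without knockout replicate 3), and Csf1r, Mpo, Kdr, Mylpf and Ckm in 0. The 6 called markers not named here passed in 1 to 5.

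**Figure D4:**
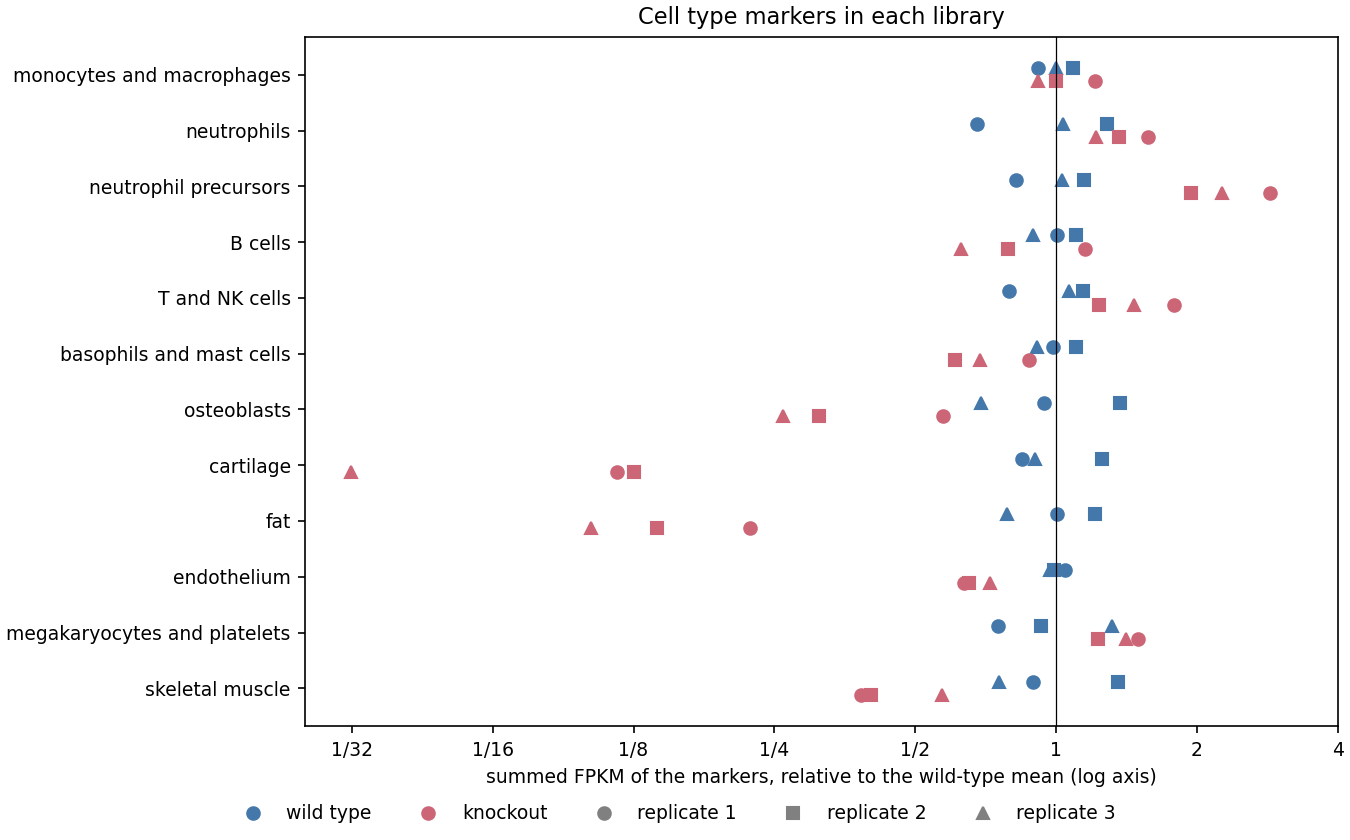
Summed FPKM of each cell type's markers in every library, divided by the wild-type mean, on a log axis; blue is wild type, red is knockout and symbols mark the replicate number. The sums of neutrophil precursor markers lie higher in all knockout libraries, those of monocyte and macrophage markers overlap, and those of cartilage, fat, osteoblast, endothelial and muscle markers lie lower in all knockout libraries.

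**Figure D5:**
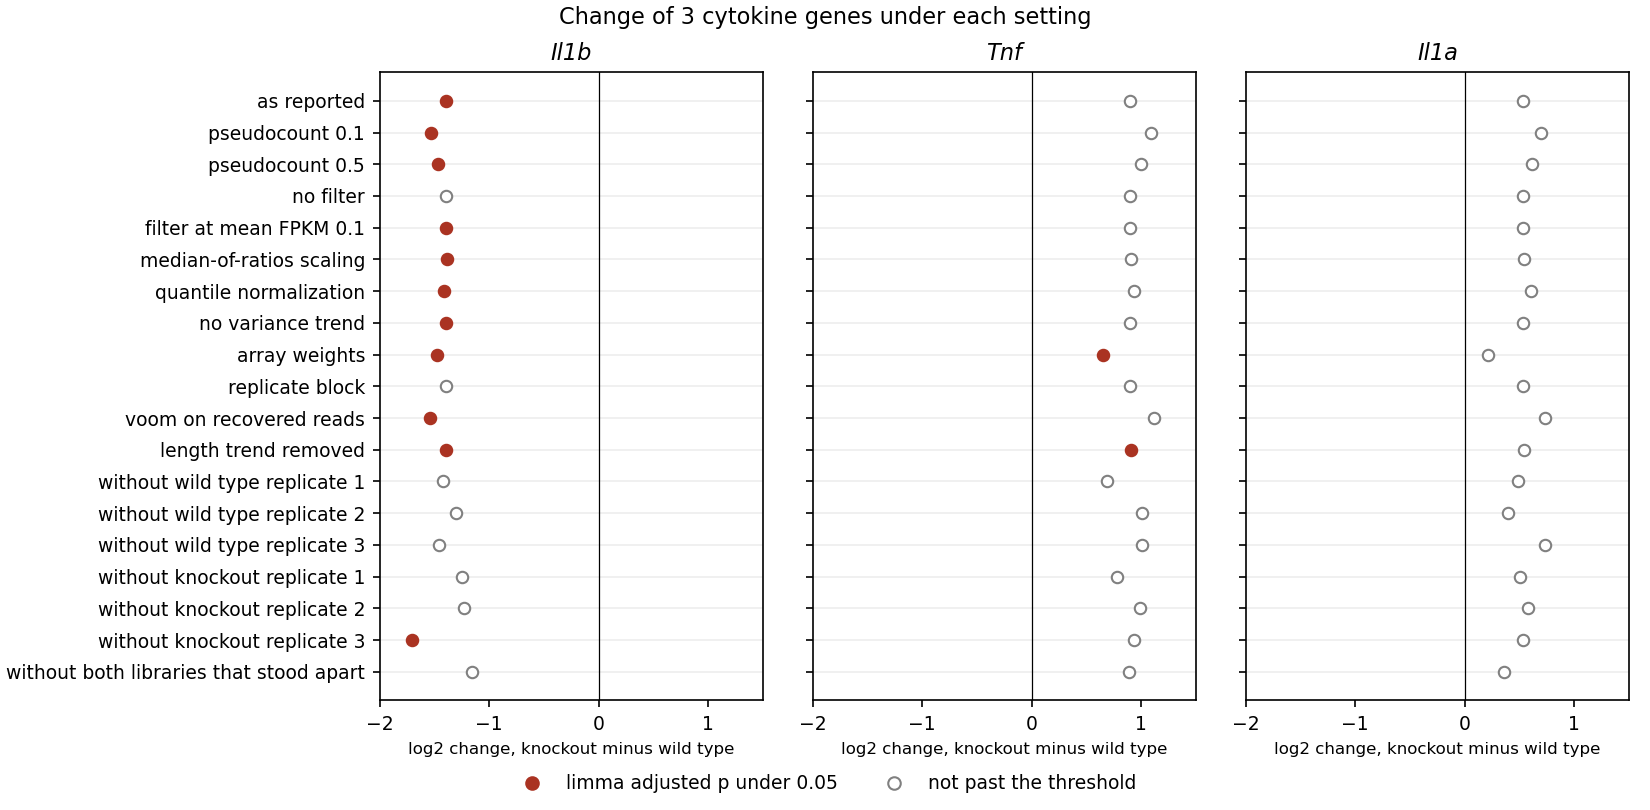
Log2 change, knockout minus wild type, of Il1b, Tnf and Il1a as reported and under 18 alternative settings; filled points passed the limma test. Il1b stays between -1.70 and -1.16 and passes in 10 of the 18, Tnf stays between 0.66 and 1.12 and passes in 2, and Il1a stays between 0.21 and 0.73 and passes in 0.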

How the data were processed

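The table that the authors deposited holds FPKM for each gene, in a column for each library. The submitters' processing notes name Bowtie 0.12.2 and mm10. How reads were counted, strand use and scaling were not given in the sources used here. Gene names, positions, exon lengths and 3′ UTRs came from GENCODE M21 (54495 identifiers matched, 37 did not). FPKM times exon length moved in steps, and 96.9% of 29600 matched genes above 0 gave whole reads in all libraries (tolerance 0.01 reads). The 10 members were among them. Most genes that did not lay on chromosomes 17, 18 and 19, where they were 17.5%, 47.3% and 46.9% of genes. Voom left these genes out. Values were analysed as log2(FPKM + 1) with limma 3.58.1 in R 4.3.3 (variance trend, mean FPKM of at least 1, Benjamini-Hochberg over all genes tested, threshold 0.05); the fold of low genes is understated on this scale. For single genes an exact permutation test of the means (two-sided) was added. The code was tested on simulated data. Alternatives changed the pseudocount, filter, scaling, variance trend, array weights, replicate block and length trend, used voom on the recovered reads, and left out libraries. The length trend was removed within each genotype. The members, lists and settings were chosen with earlier results of these data known. Named genes are the members, up to 3 genes past the threshold per list by p (or the 1 with the smallest p), and the 3 most alike to Il1b and to Tnf; others are marked. One listed gene, Il36g, had no match. One sequence window is not reported here.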

Additional observations from a re-analysis of the deposited data

How the results depend on the processing

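As reported 703 genes passed, with 1 member lower and 0 higher. The count of genes was 143 with no filter, 127 with the replicate block, 3354 with array weights and 239 without both libraries that stood apart. It was 1167 with the length trend removed, which acts on the spread within groups, and 62 to 418 when 1 library was left out. Voom on recovered reads gave 819 of the 12950 genes it tested. The lower members numbered 0 with no filter, the replicate block or without both libraries that stood apart, 2 with array weights (Il1b and Ccl4), and 0 to 1 when 1 library was left out. The higher members numbered 1, Tnf, with array weights or the length trend removed. The labels do not say whether replicate numbers pair the libraries. Deviations of same-numbered libraries had correlations of -0.49, -0.27 and 0.16. These cannot decide pairing, because the deviations also followed exon length, by different amounts in each library. With the replicate block Il1b had a limma adjusted p of 0.0909, and no other member's call changed. Leaving out 1 library gave log2 changes of -0.11 to 0.11 for Il1rn, -0.085 to 0.20 for Nfkbia and -0.10 to 0.076 for Il6, and array weights gave 0.16 for Ccl3; the cause was not tested. Depth limits Il6 and Cxcl2, which had 4 to 19 reads per library.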
